A study of Mus musculus with 32 samples.

Results

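The proteins of the cytosolic ribosome were followed here in the mouse mammary gland through pregnancy and lactation and across diets of different fat content, and in the liver of lactating mice. The family was taken from the gene symbols of the array's annotation: every Rps or Rpl gene and the stalk protein genes Rplp0 to Rplp2, without pseudogenes, the ribosomal S6 kinases and probe sets that name more than 1 gene. This gave 33 genes of 8251 on the array, carried by 46 probe sets, and 9 of them had several probe sets. Where a gene had several, the brightest on average across the 32 arrays stood for it. Another 2 probe sets carried the symbol of Rps4l, which is annotated as a pseudogene, and were left out. Other ribosomal proteins, among them Rplp1, Rplp2, Rps6, Rpl3 and Rpl5, had no probe set of their own and were not analysed here as genes. A further 39 probe sets name a ribosomal protein together with other genes, and are described only as a set.

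All animals were wildtype FVB mice, and each array was hybridised with cRNA from the total RNA of an individual tissue sample. The time course held 4 arrays each of mammary gland at pregnancy days 12 and 17 (PD12, PD17) and lactation days 1, 2 and 9 (LD1, LD2, LD9), on chow. The diet groups held 3 arrays each of mammary gland on 8%, 16% or 40% dietary fat, and liver on 8% fat had 3. The 8% and 40% diets, named for the share of calories from soy oils, replaced chow from lactation day 5 for 5 days. Gland and liver were taken from these dams on day 10, with no label tying a gland array to a liver array; feeding and day are not stated for the 16% group. The descriptions of the 8% and 16% mammary arrays read 40%, so these groups rest on the titles; the 40% liver was not analysed here. The tissue labels were checked against marker genes. All 8 milk protein genes lay above the detection line used here (an intensity of 18.6, the median of all values) in the gland groups at PD12, at LD9 and on 8% fat, and all 8 lay below it in liver, whose 10 hepatocyte markers summed to intensities of 107000 to 119000.

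A ribosome joins a small subunit, which reads the mRNA, with a large subunit, which forms the peptide bond. Each subunit needs its proteins in equal numbers, and cells adjust them together: most of their mRNAs begin with a run of pyrimidines, the terminal oligopyrimidine tract, through which mTOR signalling and the protein LARP1 control their translation. An array reads the level of the mRNA and not its translation. The mammary epithelium grows through pregnancy and turns around birth to the synthesis of milk proteins, for which it is one of the most active protein-making tissues of the mammal.

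The first bases of these genes are shown because the tract that gives the family its common control lies there. RefSeq windows (GRCm38.p6, 250 bases before to 50 bases after an annotated start) were found for 27 of the 33 genes, 36 windows in all. A run was counted where a C within 5 bases of the start was followed by at least 4 C or T on the coding strand; 11 of the 27 genes had one at an annotated start (40.7%) against 21.2% of 27025 genes. The lines give 30 bases, 15 on each side of the start, with the run in capitals.
Rps18 (small subunit, chr17:33955651-33955680, minus strand): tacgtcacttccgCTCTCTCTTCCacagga
Rps10 (small subunit, chr17:27635230-27635259, minus strand): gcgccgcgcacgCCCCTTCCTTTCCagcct
Rps24 (small subunit, chr14:24490663-24490692, plus strand): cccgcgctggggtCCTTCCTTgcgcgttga
Rpl7a (large subunit, chr2:26910792-26910821, plus strand): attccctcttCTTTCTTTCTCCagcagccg
Rpl13a (large subunit, chr7:45128731-45128760, minus strand): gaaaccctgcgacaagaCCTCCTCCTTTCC
Rplp0 (stalk, chr5:115559452-115559481, plus strand): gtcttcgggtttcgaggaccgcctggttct
Rps3 (small subunit, chr7:99483695-99483724, minus strand): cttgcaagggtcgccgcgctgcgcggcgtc
Rpl13a, with the largest fall of the family, and Rps18, with the second largest F over the stages, carry a run. Rplp0, Rps3, Rpl6 and Rps19, which also fell, show none at the starts annotated here. Rps24 and Rps27l carry a run and were not called lower from PD12 to LD9. Of the 20 brighter members (defined below) with a window, 7 carry a run. A link between run and fall was not tested. The run of Rpl13a continues past the last base shown. In the whole windows, CCGGAAG on either strand, a sequence bound by ETS factors, was found in 11 of the 27 genes (40.7%) against 9.93% of all genes. AAGATGGC on either strand, bound by YY1, was found in 5 (18.5% against 3.19%), GGGCGG on either strand, bound by SP1, in 16 (59.3% against 38.2%), and TATAAA on the coding strand in 3 (11.1% against 9.77%). The letters of these motifs do not exclude one another within a window. A match describes letters and not a bound site.

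The level of the family on the array set which members could be followed. Over all 32 arrays, 22 of the 33 had a mean above the detection line of 4.22 in log2 intensity, 11 of the small and 11 of the large subunit with its stalk; these are called the brighter members below. The other 11 were dimmer, and 8 of them lay below the line in every group: Rpl35a, Rpl39, Rpl39l, Rps14, Rps15, Rps20, Rps27 and Rps29. These are abundant transcripts in most tissues, except Rpl39l, whose protein is known from testis, and nothing about the level of their mRNA can be read from probe sets at background. Rpl39, which lines the exit tunnel of the nascent chain, read 2.81 at PD12 and 3.32 at LD9 and was not tested. Rpl38, Rpl22 and Rpl32 crossed the line in some groups only. Only probe sets with at least 1 group mean on or above this line were tested, and calls are those of limma at a Benjamini-Hochberg adjusted p under 0.05 over all probe sets tested in the fit.

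From mid pregnancy to full lactation the ribosomal protein mRNAs lay lower. Between PD12 and LD9, 18 of the 22 brighter members fell, 3 rose and Rps24 did not pass the test, with a median log2 difference of -0.57, while the median over all 7189 probe sets tested was -0.13. That background depends on brightness. Over the probe sets with at least 1 group mean on or above the 75th percentile of all values (6.12 in log2), the median was -0.53. This is close to the median of the brighter members. The background was high in this comparison: 42.4% of all probe sets tested were called lower and 35.2% higher. The groups did not overlap for 20 of the 22, against 69.8% of all probe sets tested. Falls came from both subunits, 7 of the 11 small subunit proteins (median over the 11, -0.56) and all 11 of the large (median -0.59). Under an alternative that set the 75th percentile of every array equal, the median over all probe sets moved to 0.37 and that of the brighter members to -0.15, 16 of the 22 lay below 0 in place of 19, and over all 24 members tested 10 were called lower and 6 higher in place of 19 and 4.

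**Figure D1:**
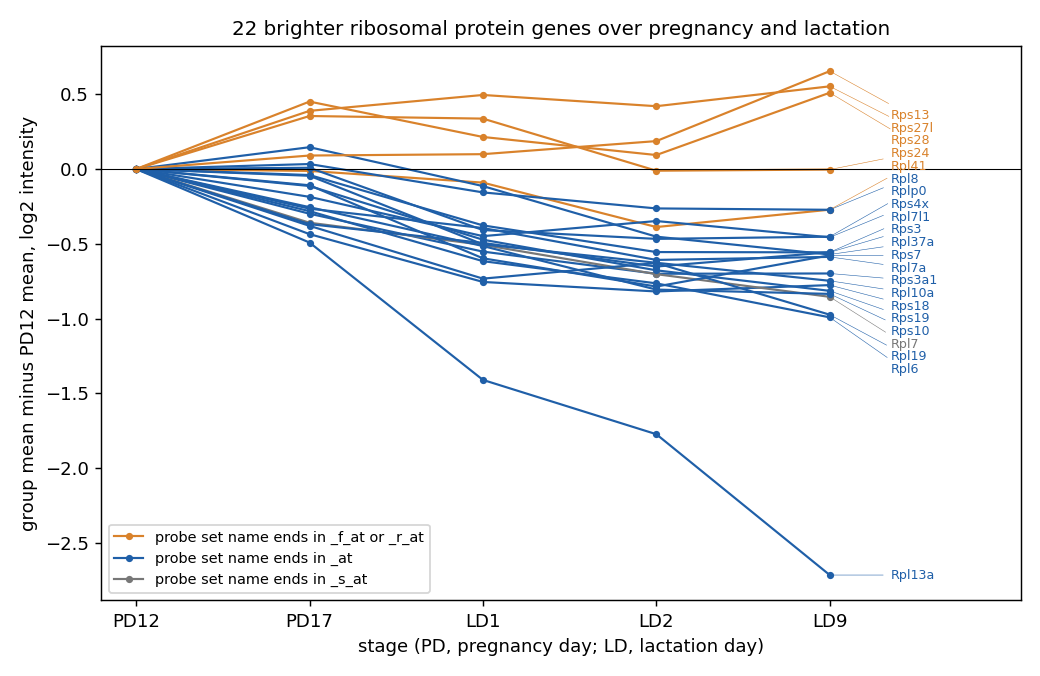
Course of the 22 brighter ribosomal protein genes: the horizontal axis gives the 5 stages and the vertical axis each group mean (4 arrays) minus the PD12 mean, in log2 intensity, with 1 line per gene coloured by the ending of its probe set's name. Rpl13a ends lowest at -2.71, the 18 lines of members called lower end at or below -0.27, and the 3 lines of members called higher all belong to probe sets ending in _f_at or _r_at.

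Rpl13a, a large subunit protein that also serves in a complex repressing the translation of inflammatory mRNAs, changed most. Its log2 intensities were 8.88, 8.82, 9.24 and 9.08 at PD12, 8.42, 8.59, 8.60 and 8.45 at PD17, and 7.46, 7.70, 7.80 and 7.41 at LD1. They were 7.57, 7.42, 6.87 and 7.07 at LD2 and 6.07, 6.68, 6.19 and 6.22 at LD9. The LD9 arrays lay below every array of the earlier stages, and PD12, PD17 and LD1 did not overlap, while LD1 and LD2 did. The difference from PD12 to LD9 was -2.71 (SE 0.15, adjusted p = 2.08e-11), a 6.56-fold fall, and the largest F of the family over the 5 stages was that of Rpl13a (F = 96.0, adjusted p = 1.21e-10).

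Rps18, a protein of the head of the small subunit, had the second largest F (46.9) and a narrow spread. Its values were 13.81, 13.76, 13.63 and 13.77 at PD12 and 13.31, 13.23, 13.34 and 13.35 at PD17. They were 12.99, 12.94, 12.97 and 13.04 at LD1, 12.90, 12.91, 12.95 and 12.93 at LD2, and 12.99, 12.93, 12.99 and 12.96 at LD9. All PD12 arrays lay above all PD17 arrays, and these above all arrays of lactation; within lactation the groups overlapped. It fell by 0.78 in log2 from PD12 to LD9 (SE 0.07, adjusted p = 1.43e-08).

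Further falls from PD12 to LD9 came from proteins of both subunits. Rpl6, a large subunit protein, fell by 0.99 (SE 0.11, adjusted p = 9.16e-08), from 12.04 ± 0.11 to 11.05 ± 0.19 (SD, n = 4 each). Rpl19, which forms a bridge between the subunits, fell by 0.97 (SE 0.09, adjusted p = 2.81e-08), and Rps10, of the small subunit's head, by 0.83 (SE 0.09, adjusted p = 1.67e-07). Rps19, which is mutated in Diamond-Blackfan anaemia, fell by 0.81 (SE 0.08, adjusted p = 5.59e-08) from 11.96 ± 0.13 to 11.15 ± 0.06 (SD, n = 4 each), and was among the 5 largest F values with Rpl19 and Rpl22. Rps3, at the entry of the mRNA channel, fell by 0.56, Rps4x, the X-linked form of a small subunit protein, by 0.46, and Rplp0, which anchors the stalk where elongation factors dock, by 0.45. The remaining falls among the brighter members lay between 0.27 (Rpl8 and Rpl41) and 0.85 (Rpl7).

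Not every member held its direction under other settings. With the 75th percentile of the arrays set equal, Rpl41 and Rpl8 were at 0.15 from PD12 to LD9, with no call, and Rps24 was called higher (0.42). Rps4x was called higher when its 5 probe sets were averaged (0.32), and Rpl7 likewise when its 2 were (0.29). The smallest F values over the stages were those of Rps27l (4.99, adjusted p = 0.00818), Rps13, Rpl8, Rpl7l1 and Rps4x. All 24 members tested over the stages passed this F test, as did 87.5% of all probe sets tested.

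The exceptions to the fall share a feature of the probe set. Names ending in _f_at or _r_at mark, on this array, probe sets whose probes are shared within a sequence family or were chosen with a design rule dropped. Of the members tested from PD12 to LD9, all 17 on probe sets with plain names fell (46.2% of all plain probe sets tested did), and so did Rpl7, whose name ends in _s_at. Of the 6 members tested on _f_at or _r_at probe sets, 4 rose, 1 fell (Rpl41) and Rps24 was not called. The 4 include Rpl38, which entered the test only through LD2 and LD9, where it was high. Over the whole array, 62.2% of such probe sets were called higher from PD12 to LD9, against 30.4% of plain ones, and their median difference was 0.61 against -0.24. The 8 members below the line in every group are also on plain probe sets and read higher at LD9 than at PD12, at background. Of the members that rose, Rps13, Rps27l and Rpl38 had means of 5.55, 4.80 and 4.12 over all 32 arrays, and Rps28 had 12.80. For the dim ones among them the ending cannot be told apart from low brightness. The part of the probe set's kind in the members' rises was not tested.

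Of the 4 members that rose, Rps28, Rps13 and Rps27l were brighter members and Rpl38 lay above the line at LD2 and LD9 and, in the diet groups, on 16% and 40% fat. Rpl38 entered the test over the stages only through LD2 and LD9, where it was high, so its rise is not independent of the filter. Rps28, of the small subunit, read 12.59, 12.28, 12.90 and 12.77 at PD12 and 13.31, 13.15, 13.12 and 13.01 at LD9 on probe set 98085_f_at, without overlap (0.51, SE 0.12, adjusted p = 0.000718). Rps13 rose by 0.65 to 6.05 ± 0.27 (SD, n = 4), Rps27l, the relative of Rps27 that is a p53 target, by 0.55 to 4.97 ± 0.03 (SD, n = 4), and Rpl38, known for its part in translating Hox mRNAs, by 0.71 to 4.51 ± 0.09 (SD, n = 4). Rps27l and Rpl38 sit near the detection line, while Rps13 lay above it, at 5.39 at PD12. Below the line the array as a whole drifted upward. The 6069 probe sets below it in the mean of all arrays had a median difference of 0.47 from PD12 to LD9, and 87.9% of them lay above 0. Of the 11 dimmer members, 10 lay above 0 too, with a median of 0.40. The part of this drift in the rises of Rps13, Rps27l and Rpl38 was not tested.

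Probe sets of the same gene disagreed for 3 of these members. For Rps28, probe set 100758_at, with a plain name and at a similar brightness, fell by 0.74 from PD12 to LD9 (SE 0.10, adjusted p = 1.5e-06), from 13.54 to 12.80, and 98086_r_at rose by 1.30. So the direction for Rps28 depends on the probe set. For Rpl7, a large subunit protein, 97695_s_at fell by 0.85 while 97697_at rose by 1.43, from 3.98 to 5.41. For Rps4x, 162498_r_at rose by 0.94, from below the line to 4.91, against the fall of the bright 100780_at. Both probe sets of Rpl10a, a protein of the L1 stalk, fell by 0.75. The bright probe set of Rps24, a small subunit protein also mutated in Diamond-Blackfan anaemia, was 97696_r_at; its other probe set stayed below the line.

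**Figure D2:**
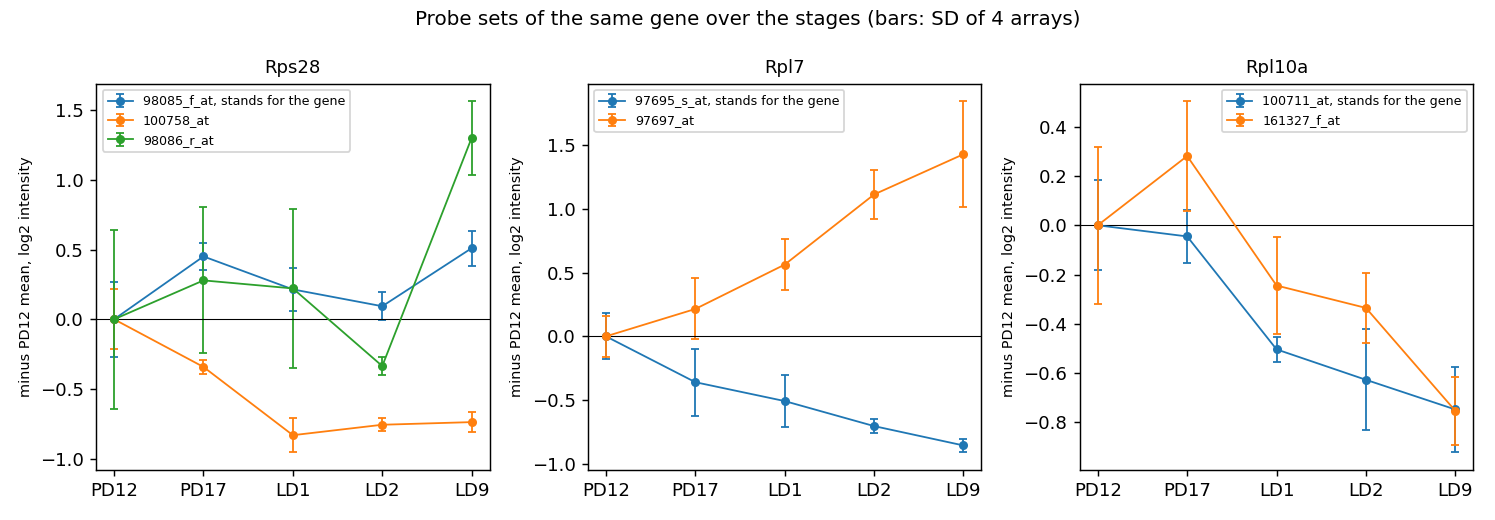
Probe sets of Rps28, Rpl7 and Rpl10a over the 5 stages: the vertical axis gives the group mean minus that probe set's PD12 mean in log2 intensity, and bars are the SD of 4 arrays. The probe sets of Rps28 end at 0.51, 1.30 and -0.74 and those of Rpl7 at -0.85 and 1.43, while both of Rpl10a end at -0.75.

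The fall was not spread evenly over the stages. From PD17 to LD2, across birth, 18 of the 22 brighter members fell and none rose, with a median of -0.38 (0.04 over all probe sets tested), where 24.5% of all probe sets were called lower and 25.5% higher. Over the probe sets with a group mean that reached the 75th percentile of all values, the median was -0.15. The groups of 17 members did not overlap, against 50.3% of all probe sets. With the 75th percentile set equal, 20 of the 22 lay below 0, as in the deposited values, while the median over all probe sets moved to 0.21 and that of the brighter members to -0.23; over all members tested 11 were lower and 2 higher, in place of 19 and 1. The 1 member called higher was Rpl38 (0.20), a call lost when any of 7 of the 8 arrays was left out, all but PD17 replicate 3. Rpl38 lay below the line at PD17 and was tested only because its LD2 and LD9 means were above it.

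The largest falls from PD17 to LD2 were those of Rpl13a (1.28 in log2, SE 0.15, adjusted p = 2.71e-06), Rps7, Rpl37a, Rpl10a and Rps19 among the members above the line. Rps7, a small subunit protein that can bind Mdm2, read 12.57, 12.35, 12.37 and 12.46 at PD17 and 11.78, 11.87, 11.75 and 11.63 at LD2, a fall of 0.68 (SE 0.11, adjusted p = 6.75e-05). Rplp0 read 13.99, 14.02, 13.90 and 14.03 at PD17, then 13.61, 13.52, 13.59 and 13.55 at LD1. No array of lactation reached the lowest array of pregnancy for Rplp0, and its fall from PD17 to LD1 was 0.42 (SE 0.08, adjusted p = 0.00107). Rps3 read 12.49, 12.76, 12.63 and 12.63 at PD17 and 12.20, 12.18, 12.08 and 12.00 at LD2, a fall of 0.52 (SE 0.09, adjusted p = 0.000202), again without overlap. Rps4x (-0.16), Rps27l (0.03), Rps13 (0.10) and Rpl7l1 (-0.28) did not pass the test. The calls of Rpl19 and Rpl7 were each lost in 5 of the 8 fits that left out an array (PD17 replicates 1 and 4 and LD2 replicates 1, 3 and 4 for Rpl19; PD17 replicates 3 and 4 and LD2 replicates 1, 3 and 4 for Rpl7), and that of Rps28 without PD17 replicate 1, LD2 replicate 1 or LD2 replicate 3. The 19 members called lower include Rpl22, whose means of 3.92 at PD17 and 3.32 at LD2 both lay below the line, and its call was lost without PD17 replicate 2.

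**Figure D3:**
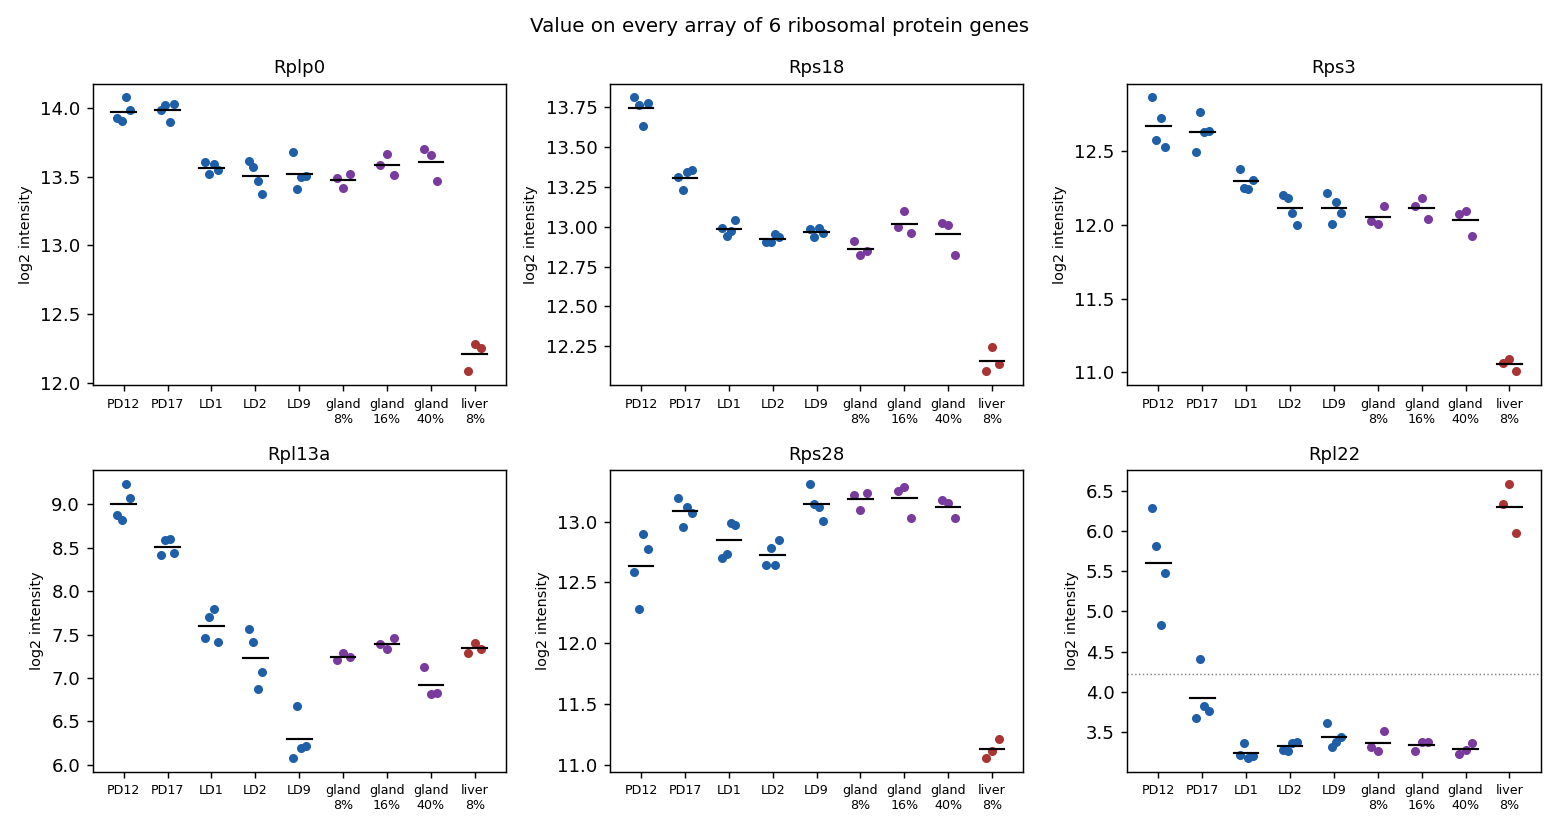
Log2 intensity on every array for Rplp0, Rps18, Rps3, Rpl13a, Rps28 and Rpl22 in the 5 stages, the 3 mammary diet groups and liver: points are arrays, black bars group means, and the dotted line in the Rpl22 panel the detection line at 4.22. Rplp0 steps down between PD17 and LD1, Rps18 between PD12, PD17 and LD1, and Rpl22 is above the line in all PD12 and liver arrays and in 1 array of PD17.

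The steps between neighbouring stages share arrays with one another and with the comparisons above. From PD12 to PD17, 9 of the 22 brighter members fell (26.7% of all probe sets were called lower) and 3 rose (18.4% higher), with a median of -0.11 against -0.02 over all, and 8 did not overlap (37.6% of all). Over the probe sets with a group mean that reached the 75th percentile of all values, the median was also -0.11. Rpl13a (-0.49, SE 0.15, adjusted p = 0.0148), Rps18 (-0.44, SE 0.07, adjusted p = 7.77e-05) and Rpl19 (-0.38, SE 0.09, adjusted p = 0.00321) fell most among them. The call of Rps27l was lost without PD12 replicate 2 or 3 or PD17 replicate 1. The 3 that rose, Rps28 (0.45, SE 0.12, adjusted p = 0.00509), Rps27l (0.39) and Rps24 (0.35), are on _f_at or _r_at probe sets, and Rps28's plain probe set fell by 0.34 (adjusted p = 0.00863). This step turned with the scaling: with the 75th percentile set equal, 6 members were called higher and 2 lower in place of 4 and 10, and the median over all probe sets moved from -0.02 to 0.19. Rplp0, not called in the deposited values, was lower with quantile normalization (-0.39, adjusted p = 0.00863). The count of calls was 14, but 8 without PD12 replicate 2 and 9 without PD12 replicate 4.

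From PD17 to LD1, 10 of the 22 fell (14% of all probe sets) and none rose (9.32% of all), with a median of -0.26 against 0.03 over all, and 10 did not overlap (24.4% of all). The largest falls were those of Rpl13a (0.92, SE 0.15, adjusted p = 0.000218) and Rps7 (0.49, SE 0.11, adjusted p = 0.00264). Rpl22 was also called lower, but both its means, 3.92 and 3.24, lay below the line, and the call was lost without PD17 replicate 2, LD1 replicate 3 or LD1 replicate 4. From LD1 to LD2 only Rps24, Rpl41 and Rps10 were called, all lower by 0.29 to 0.35 (8.18% of all probe sets were lower and 6.11% higher; 8 of the 22 did not overlap, against 28.8%). Each of these calls was lost in 6 or 7 of the 8 fits that left out an array, and leaving out any one of LD1 replicates 2, 3 or 4 or LD2 replicates 1 or 4 left none, and without LD2 replicate 3 there was 1. From LD2 to LD9 the median of the brighter members was 0.00, with Rpl13a (-0.94, SE 0.15, adjusted p = 0.000176) and Rpl19 (-0.35, SE 0.09, adjusted p = 0.0107) lower (16.2% of all) and Rps28 (0.42), Rps13 (0.47) and the dimmer Rpl38 (0.26) higher (8.82% of all). Here 7 of the 22 did not overlap, against 29.5% of all. Without LD9 replicate 1 the rise of Rps28 lost its call (adjusted p = 0.0529) and 3 of the 5 calls were left, as also without LD2 replicate 2 or LD9 replicate 3. The call of Rps13 was lost without LD2 replicate 2, 3 or 4 or LD9 replicate 1 or 3, and that of Rpl38 without LD2 replicate 2 or LD9 replicate 3 or 4.

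Among the stages, Rpl22 had a group mean above the detection line at PD12 only. It belongs to the large subunit, has a close relative in Rpl22l1, and is known from the development of T cells. On 92857_at it read 6.29, 5.82, 4.83 and 5.48 at PD12 and 3.68, 4.41, 3.83 and 3.77 at PD17, and lay between 3.18 and 3.62 on every array of lactation. Its entry into the test came through the PD12 mean alone, and its fall of 2.17 to LD9 (SE 0.21, adjusted p = 2.8e-08) ends in values at background. Its second probe set stayed below the line throughout (2.29 at PD12 and 2.73 at LD9).

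As a share of the summed intensity of the array, the 33 genes took 7.73% ± 0.32 at PD12, 7.26% ± 0.21 at PD17, 6.29% ± 0.08 at LD1, 5.69% ± 0.09 at LD2 and 6.14% ± 0.30 at LD9 (SD, n = 4 each). The 8 milk protein genes went from 5.06% at PD12 to 12.8% at LD9, and a rise of these alone lowers every other share. With the milk proteins taken out of the sum, the shares were 8.14%, 7.95%, 6.98%, 6.46% and 7.04%. In a two-sided exact permutation test the step from PD12 to PD17 had p = 0.0857, and each other stage comparison reached the smallest p that 4 against 4 arrays allow, 0.0286 (0.0572 adjusted over the 10 comparisons). The step from LD2 to LD9 was upward, by 0.452 percentage points, in a sum where the brightest probe sets, those of Rpl41, Rps24 and Rplp0, weigh most. The summed intensity itself was lower at LD9 (1984842 to 2103184) than at LD2 (2126944 to 2212139), and a smaller sum alone raises every share. The brighter members had almost no median change in log2 over this step.

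**Figure D4:**
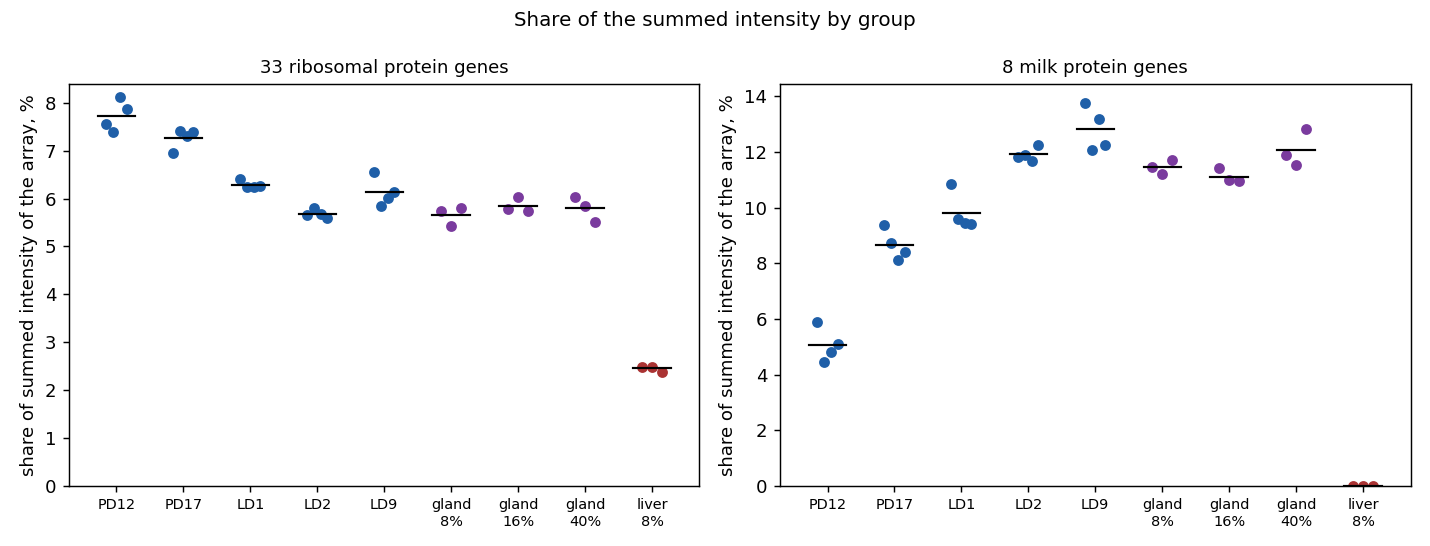
Share of the summed intensity of each array taken by the 33 ribosomal protein genes (left) and by the 8 milk protein genes (right), in percent, by group: points are arrays and black bars group means. The ribosomal share goes from 7.73% at PD12 to 5.69% at LD2 and is 2.45% in liver, while the milk protein share goes from 5.06% to 12.8% at LD9.

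Other bright transcripts were set beside the family. The 77 other probe sets as bright as the 17 brightest members (a mean of at least 11.32) had a median of -0.09 from PD17 to LD2 and 0.09 from PD12 to LD9, where the 17 members had -0.38 and -0.59. Of the 77, 53.2% lay below 0 from PD17 to LD2. That set was chosen by a mean over mostly mammary arrays and holds the milk proteins.

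Of the 39 probe sets that name a ribosomal protein among several genes, 33 were tested over the stages. From PD17 to LD2, 24 of the 33 fell and none rose (median -0.51), and from PD12 to LD9, 20 fell and 2 rose (median -0.35). Their signal cannot be assigned to 1 gene. Rpsa, a ribosomal protein and laminin receptor whose symbol the rule does not take, fell from 11.94 ± 0.12 at PD12 to 10.15 ± 0.28 at LD9 (SD, n = 4 each), by 1.79 (adjusted p = 2.58e-10).

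Genes of the pathway around the ribosome were read from lists, to be set beside the median over all probe sets of -0.13 from PD12 to LD9 and 0.04 from PD17 to LD2. Over the probe sets that reached the 75th percentile of all values, these medians were -0.53 and -0.15. Of 53 ribosome biogenesis genes tested, 40 fell and 4 rose from PD12 to LD9, with a median of -0.87. Ncl, the nucleolin of the nucleolus, went from 10.30 to 6.56 (-3.73) and Nop16 from 5.73 to 2.90 (-2.83), the latter ending at background; Rpf2 (0.73) and Brix1 (0.55) rose, and Mybbp1a and Nop2 were bright and not called. From PD17 to LD2, 17 of the 53 fell and 7 rose (median -0.15), with Nop16 (-2.31) and Bysl (-1.65) the largest falls.

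Mitochondrial ribosomal proteins are a separate family that serves the organelle's own genome. From PD12 to LD9, 36 of 57 tested fell and 8 rose (median -0.61), with Mrpl16 (-1.68) and Mrpl27 (-1.65) the largest falls and Mrps18a (1.30) and Mrps5 (0.74) the largest rises. From PD17 to LD2, 13 of the 57 fell and 7 rose (median -0.08), while 18 of the 22 brighter cytosolic members fell; the difference between the families was not tested.

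Of 13 tested mRNAs outside the family that are known to carry the tract, 10 fell and 2 rose from PD12 to LD9 (median -0.66), and 8 fell and 1 rose from PD17 to LD2 (median -0.27). Nap1l1, a histone chaperone, fell from 8.38 to 5.38 and Btf3, of the nascent chain complex, by 1.55 in log2 from PD12 to LD9, Eef1g (1.00) and Eef1b2 (0.49), elongation factor subunits, rose, and Tpt1 (0.11) was not called. Pabpc1, the poly(A) binding protein, fell by 0.99 from PD17 to LD2. Among 16 regulators of ribosome production, 6 fell and 4 rose from PD12 to LD9: Myc, which drives ribosome production, went from 7.21 to 5.03 (-2.18) and its partner Max fell by 1.13, while Ddit4, an inhibitor of mTOR complex 1, rose by 1.26 and Eif4e by 0.80. Eif4ebp2 and Yy1 were not called. From PD17 to LD2, 5 regulators fell, led by Myc (-1.21), and 3 rose.

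The cell makeup of the gland changed over the same stages, and in bulk tissue fewer cells of a type cannot be told apart from less RNA per cell. From PD12 to LD9, all 15 fibroblast markers tested fell (summed intensity 20700 to 25100 at PD12 and 1780 to 5820 at LD9), and 11 of 12 adipocyte markers did, with 1 higher (9700 to 15400 and 1580 to 2480). Of 10 macrophage markers 8 fell and 2 rose (2590 to 3850 and 967 to 1460), and of 10 endothelial ones 6 fell and 3 rose (1660 to 2060 and 866 to 1020). All 5 myoepithelial markers fell (2640 to 3370 and 807 to 1370), and of 9 luminal ones 6 fell and 1 rose (7000 to 9320 and 4340 to 4860). Lymphocyte markers were near the line, with 10 of 12 below it at PD12 and sums of 147 to 154, and 4 of 5 tested rose to sums of 201 to 254. Skeletal muscle markers were below the line in 7 of 7 cases at PD12, and the 2 tested rose, with sums of 53.4 to 59.6 at PD12 and 80.5 to 97 at LD9. Of 3 erythrocyte markers tested 2 fell, and 1 LD9 array, replicate 1, had a sum of 17000 where the lowest had 790. Without that array 24 members were called from PD12 to LD9 in place of 23. From PD17 to LD2, 10 of 15 fibroblast, 8 of 12 adipocyte, 7 of 10 macrophage, 7 of 9 luminal and 4 of 5 myoepithelial markers fell, and among these lists 1 luminal marker rose. Over the same step 4 of 5 lymphocyte and 2 of 2 skeletal muscle markers rose with none lower, 2 of 10 endothelial markers rose and 1 fell, and none of 3 erythrocyte markers was called. Both muscle markers entered the test through lactation means only, and Tnni2 lay below the line at PD17 (3.75) and LD2 (4.02). Probe sets below the line drifted upward over this step (median 0.20, 91.2% above 0). The part of this drift in the lymphocyte and muscle rises was not tested. The part of the changing makeup in the fall of the ribosomal proteins was not tested.

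Diet gave no call in the family. In the mammary gland, none of the 23 members tested passed the test between any pair of diets: 40% against 8% fat (0.0463% of all probe sets higher and 0.0463% lower), 40% against 16% (0.0771% and 0.0463%) and 16% against 8% (0% and 0%). Over the 3 diets together the F test of limma called none either (0.17% of all probe sets). At an unadjusted p under 0.05 there were 1, 4 and 2 members (8.3%, 13.7% and 12.3% of all probe sets), and the smallest adjusted p values were 0.408, 0.116 and 0.268. The median differences of the brighter members were -0.02, -0.09 and 0.03, and groups did not overlap for 1, 4 and 8 of the 22 (13.1%, 17.1% and 21.4% of all). An unadjusted 95% confidence interval built on the median standard error of the brighter members reached about 0.26 in log2 to each side. It used the residual degrees of freedom alone, without those that the moderated variances add, and so is wider than the tests imply. After adjustment larger differences can also miss the threshold with 3 arrays a group. Each group enters 2 of the 3 comparisons, which therefore share arrays. Since feeding and day are not stated for the 16% group, diet cannot be told apart from these in the comparisons with it.

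Rpl13a stood lowest on the 40% diet. It read 7.20, 7.28 and 7.24 on 8% fat, 7.39, 7.33 and 7.45 on 16% and 7.12, 6.82 and 6.83 on 40%, so that the 40% arrays lay below all others. Its difference was -0.32 from 8% (SE 0.11, adjusted p = 0.408) and -0.47 from 16% (SE 0.11, adjusted p = 0.116), neither of which passed. Rpl7 was 0.28 higher on 16% than on 8% (adjusted p = 0.268), and Rplp0 read 13.48, 13.59 and 13.61 as means on 8%, 16% and 40%. The family's share of summed intensity was 5.66% ± 0.21, 5.85% ± 0.16 and 5.79% ± 0.26 (SD, n = 3 each) in that order.

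Liver held less ribosomal protein mRNA than the lactating gland on the same 8% diet. Of the 22 brighter members, 19 were lower in liver, Rpl7l1 was higher, and Rpl37a and Rpl13a were not called, with a median of -0.81 against -0.01 over all 6897 probe sets tested. Of all probe sets, 40.3% were lower and 39.7% higher, and 83.1% did not overlap between the tissues, as did 21 of the 22. All 11 small subunit members and 8 of the 11 large subunit members were lower. The share of summed intensity was 2.45% ± 0.07 in liver and 5.66% ± 0.21 in the gland (SD, n = 3 each; two-sided exact permutation p = 0.1, the smallest that 3 against 3 allow). With the 75th percentile set equal, the median over all probe sets moved to -0.40, that of the brighter members to -1.15, and 21 of the 22 lay below 0. The other very bright probe sets, which hold milk protein genes, lay lower still in liver, with a median of -1.18 against -0.93 for the 17 brightest members.

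Rps28 differed most, with 13.22, 13.10 and 13.23 in the gland and 11.05, 11.12 and 11.21 in liver (-2.06, SE 0.09, adjusted p = 4.07e-07), and here its probe set 100758_at went the same way (-1.62). Rps13 (-1.65, SE 0.20, adjusted p = 0.000153) and Rpl41, the smallest ribosomal protein (-1.57, SE 0.09, adjusted p = 1.78e-06), followed. Rps28, Rps13 and Rpl41 are all on _f_at or _r_at probe sets. Over the whole array, 61.2% of such probe sets tested were lower in liver (median -0.52), against 36.7% of plain ones (median 0.10). The part of the probe set's kind in these falls was not tested. Rplp0 read 13.49, 13.42 and 13.52 in the gland and 12.08, 12.28 and 12.25 in liver, 1.27 lower (SE 0.10, adjusted p = 8.23e-06). Rps7 (-1.12) and Rps3, at 12.05 in the gland and 11.06 in liver, complete the 6 largest, while Rps3a1 (-0.31) and Rps4x (-0.30) were the smallest falls called, the latter lost without gland replicate 1 or liver replicate 2. Rps19 was lower by 0.45 and Rps27l by 0.80. Members thus ranged from a 4.16-fold lower to a 2.55-fold higher level in liver among the brighter ones. Rps13 and Rps27l ended near the line in liver, at 4.31 and 4.23. The 6069 probe sets below the line in the mean of all arrays had a median of -0.27 between liver and gland, with 16.6% above 0.

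Of the 3 members higher in liver, 1 was above the line in both tissues. Rpl7l1, a relative of Rpl7 that acts in assembling the large subunit, read 4.68, 4.99 and 4.79 in the gland and 6.04, 6.26 and 6.21 in liver (1.35, SE 0.12, adjusted p = 1.76e-05). Rpl22 read 3.32, 3.26 and 3.51 in the gland, at background, and 6.33, 6.59 and 5.98 in liver (2.93, SE 0.16, adjusted p = 1.31e-06), and Rpl32 rose from 3.64 to 4.47. Rpl22 and Rpl32 were tested only because their liver means were above the line. Rpl13a, at 7.24 in the gland and 7.34 in liver, was not called in the deposited values, but was lower in liver with quantile normalization (-0.32, adjusted p = 0.00473) and with the 75th percentile set equal (-0.24, adjusted p = 0.0299).

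**Figure D5:**
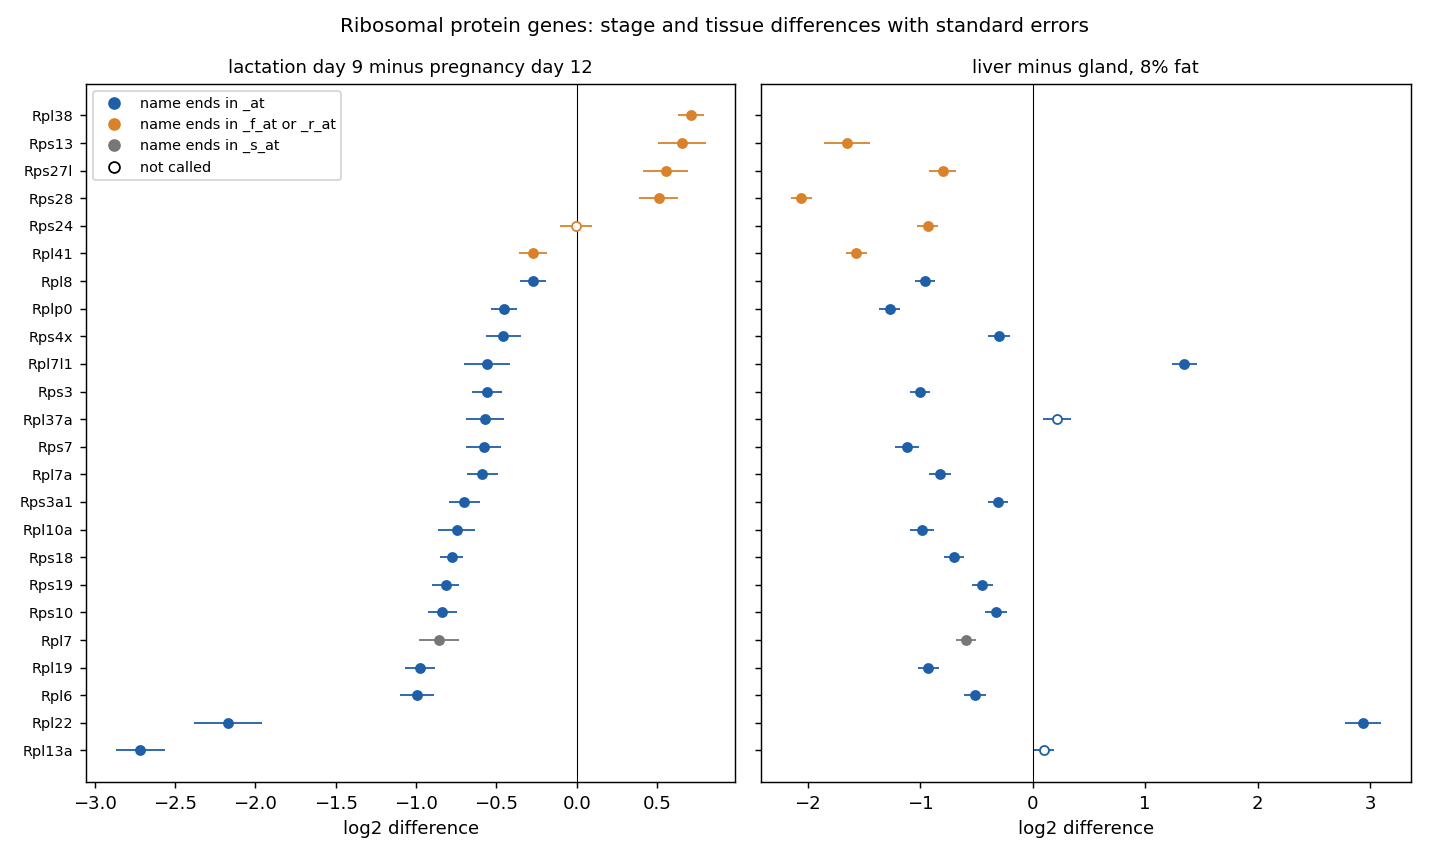
Log2 differences with standard errors for the 24 members tested over the stages: LD9 minus PD12 on the left, liver minus gland on 8% fat on the right, with open points for members that were not called and colours for the ending of the probe set's name. Rpl13a lies at -2.71 on the left and at 0.10 on the right, and Rps28 at 0.51 and -2.06; Rpl38, not tested in the tissue comparison, has no point there, and Rpl32, tested only there, is not drawn.

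The same lists were read between liver and gland. Of 57 mitochondrial ribosomal proteins, 39 were higher and 6 lower in liver (median 0.61), with Mrpl36 (2.34) and Mrpl16 (2.12) highest and Mrps18a (-2.11) and Mrpl41 (-1.03) lowest. Of 50 biogenesis genes, 22 were higher and 8 lower (median 0.20), with Rcl1 (3.39) and Ncl (3.37) highest and Brix1 (-1.37) and Wdr43 (-0.98) lowest. The tract-bearing mRNAs outside the family split, 5 higher and 8 lower (median -0.53), with Nap1l1 (1.77) and Btf3 (0.91) higher and Eef1b2 (-1.71) and Pabpc1 (-0.86) lower. Among the regulators 5 were higher, led by Gabpa (2.25), an ETS factor, and Myc (1.26), and 3 were lower, led by Mlst8 (5.63 to 4.64) and Eif4ebp2 (-0.77). Of the 33 tested probe sets naming several genes, 26 were lower and 2 higher, and Rpsa (0.24) was not called. Of the marker genes tested, 10 of 12 adipocyte ones were lower in liver and 2 higher, 12 of 15 fibroblast ones lower and none higher, and 7 of 9 macrophage ones higher and 1 lower. Endothelial markers split, 5 lower and 4 higher of 9, as did luminal ones, 5 lower and 3 higher of 8, and all 5 lymphocyte and all 4 myoepithelial ones were lower; their part in the tissue difference was not tested.

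Members were also set against a centre of the family, at the start its median. Members differ widely in brightness, so on every array this median was the value of Rpl6, Rps19 or Rpl10a. Which of these genes set it changed between arrays. From PD17 to LD2 and from PD12 to LD9, each of them fell by more than the median of the brighter members. Other members therefore tend to come out higher against it by construction. Measured as the difference from the median of the 33 members on each array, 7 members were called from PD17 to LD2 (68.9% of all probe sets tested), 15 from PD12 to LD9 (77.4%), 14 between liver and gland (78.2%) and none between 40% and 8% fat (0.0154%). The share of members called was below that of all probe sets each time, so these counts show nothing particular to the members. Against this median Rpl13a was lower in both stage comparisons, and the other calls of the stages were higher except for Rpl22 from PD12 to LD9. Rpl22 entered the test through PD12 alone and is at background at LD9, so its calls here show nothing about the family. In liver Rps28, Rpl41, Rps13, Rplp0 and Rps7 were lower and 9 members higher. All these directions rest on the genes that set the median, and show nothing about the family as a whole. With the mean of the 22 brighter members as the centre, 6, 15, 16 and 0 were called in that order. These counts are given without the share of all probe sets called with this centre. Nothing particular to the members can be read from them or from the split of their directions. From PD12 to LD9 the split then moved from 13 higher and 2 lower to 7 higher and 8 lower: the lower members, beside Rpl22, were Rpl13a, Rps19, Rpl6, Rpl19, Rpl7, Rps18 and Rps10, and the higher ones Rpl41, Rps27l, Rps13, Rpl8, Rps24, Rps28 and Rpl38. All of these higher ones but Rpl8 are on _f_at or _r_at probe sets. In the deposited values 62.2% of such probe sets over the whole array were called higher from PD12 to LD9. The part of the probe set's kind in this split was not tested.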

How the data were processed

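Total RNA from individual samples was made into biotinylated cRNA and hybridised to 32 1-colour arrays with 12488 probe sets, per the labels' protocols. The authors deposited 1 table of intensity per probe set and array on a linear scale (0.684 to 58520), made with GCRMA, per the submitters' processing notes. GCRMA subtracts a sequence-based background and normalizes between arrays; no source used here gives its version or settings. Values were used as deposited, floored at 1 (208 lay below) and taken to log2. The 66 control probe sets were left out. Genes came from the array's annotation, of which 10833 probe sets name 1 gene, 396 several and 1193 none; 10817 of the first were found in RefSeq by Entrez ID.

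Tests used limma 3.58.1 in R 4.3.3 (linear model, moderated variances), with 1 fit for the 20 arrays of the stages, 1 for the 9 mammary diet arrays and 1 for the 6 arrays of liver and gland on 8% fat. Probe sets whose group means all lay under 18.6, the median intensity, were left untested. Shares of summed intensity were compared with exact permutation tests. The models were tested on simulated data. P-values set a difference between groups against the spread between arrays, whose number limits the precision.

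The members, gene lists and tests were chosen with earlier results of these data known. The members named are those with the largest called changes in each comparison, the 5 largest and 5 smallest F values and a short list of well-known proteins; from each list, called genes with the 2 largest changes each way and the brightest uncalled, in the main comparisons. Members singled out for their probe sets or their detection were chosen after their values were seen. Alternatives covered normalization, filter, floor, probe set choice, arrays in the fit and the replicate number as a block. Same-numbered arrays did not deviate together (correlation over 0.1 in 11 of 40 pairs of the stages, 1 of 9 and 0 of 3), so arrays were treated as unpaired. Promoter windows are RefSeq's; protein sequences were not used here.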

Additional observations from a re-analysis of the deposited data

Results flagged for a closer look

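In groups of 4 arrays, a value was singled out when its gap to the nearest array, as a share of the group's range, passed Dixon's 95% critical value; 9 of 115 groups tested had one, where chance gives about 1 in 20. At PD12, Rps7 read 12.22 on replicate 2 against 12.63 to 12.69 on the others, Rps19 read 11.77 on replicate 2 against 12.01 to 12.03, and Rps3a1 read 13.79 on replicate 4 against 13.66 to 13.68. At PD17, Rps19 read 11.97 on replicate 2 against 11.8 to 11.81. At LD1 replicate 1, Rps27l read 5.3 against 4.74 to 4.8, Rpl7 read 12.7 against 13.06 to 13.13, and the family's share of summed intensity was 6.4% against 6.24% to 6.27%. At LD9 replicate 1, Rps4x read 12.52 against 12.39 on each of the others and Rps3a1 13.13 against 12.95 to 12.96. None of these values was left out of the tests in the report.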

How the results depend on the processing

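Medians here are over all 33 members, -0.02 (PD12 to PD17), -0.15 (PD17 to LD1), -0.34 (PD17 to LD2), -0.45 (PD12 to LD9) and -0.45 (liver), and counts over all members tested. The counts are given without the share of all probe sets called in the same setting. They show how calls depend on the processing and nothing particular to the members. With the 75th percentile of each array set equal, these medians were 0.16, -0.066, -0.20, -0.029 and -0.79, and counts of calls were 8 (PD12 to PD17), 7 (PD17 to LD1), 0 (LD1 to LD2) and 13 (PD17 to LD2). With quantile normalization the median was -0.16 from PD17 to LD2 and -0.54 in liver. With array sums equal it was -0.71 in liver, and 1 call was left from LD1 to LD2. With all probe sets of a gene averaged, the medians were -0.24 (PD17 to LD2) and -0.27 (PD12 to LD9), and 9 (PD12 to PD17) and 3 (LD2 to LD9) were called. A filter at the 75th percentile left 3 calls from LD2 to LD9, a floor at 16 gave a liver median of -0.33, and a fit of only PD12 and PD17 called 7. Against the family's centre, no filter called 16 (PD17 to LD2), 25 (PD12 to LD9) and 22 (liver), and averaging probe sets 22 in liver. Leaving out arrays in turn, the median from PD17 to LD1 ranged from -0.22 to -0.13, and calls from 0 to 2 (LD1 to LD2), 3 to 5 (LD2 to LD9) and 8 to 13 (PD12 to PD17).

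Single genes changed direction in 10 cases. With the 75th percentile set equal these were Rpl41 (0.15), Rpl8 (0.15) and Rps24 (0.42) from PD12 to LD9 and Rpl13a in liver (-0.24); with quantile normalization Rpl13a in liver (-0.32) and Rplp0 from PD12 to PD17 (-0.39). With probe sets averaged they were Rpl7 (0.28 from PD17 to LD2, 0.29 from PD12 to LD9), Rps24 (0.18) and Rps4x (0.32), both from PD12 to LD9. The cause was not tested, except that averaging brings in the dim or rising probe sets named in the report. With the replicate number as a block, 10 members were called from PD17 to LD1 in place of 11, and 1 of 237 single-gene results lost its call. The mean of the brighter members as the family's centre was chosen after seeing the data. Probe sets near background limit what can be said of Rps13, Rps27l, Rpl38, Rpl22, Rpl32 and the 8 members never detected.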
